A study of Mus musculus with 8 samples.

Results

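The cohesin and meiotic chromosome axis genes are 32 genes chosen by name from the 54838 entries of a table of reads per Ensembl gene. They comprise 9 core cohesin subunits, 8 genes of cohesin loading, release and acetylation, 5 genes of cohesin protection and cleavage, and 10 genes of the meiotic axis and synaptonemal complex. Total RNA of mouse oocytes on the C57BL/6 background was sequenced in 8 libraries, each from 5 to 10 pooled oocytes. Control (wildtype) oocytes and BAF250aGKO oocytes were each collected at the germinal vesicle (GV) stage and at metaphase of the second meiotic division (MII), with 2 libraries in each of the 4 groups. The knockout removes BAF250a, the chromatin remodeller subunit encoded by Arid1a, through Gdf9-cre. Gdf9-cre is active in oocytes already enclosed in follicles, so deletion follows the prophase steps in which axes are built. The sources used here do not give the age of the mice or say whether the controls carry a floxed allele or Cre. The labels do not say that the libraries of a group came from separate animals, so p-values measure the spread between these libraries only.

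Cohesin is a ring of an SMC1 and an SMC3 subunit closed by a kleisin and joined by a STAG subunit, and it holds sister chromatids together. Oocytes use meiotic forms (SMC1B, REC8, RAD21L, STAG3) beside the general ones, and cohesin loaded before birth has to last until ovulation. In meiotic prophase, HORMAD and SYCP proteins organise the chromosome axis and the synaptonemal complex, which is taken apart before the GV stage. Shugoshins and MEIKIN then protect centromeric cohesin in the first division, and separase, held in check by securin, cuts the kleisin.

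The libraries held 19587421 to 33289150 reads in genes, and 3 reads, the limit that a count of 0 allows, correspond to 0.0894 to 0.17 CPM (reads scaled to the normalised library size). These limits cover counting error only. Arid1a fell in knockout oocytes by 5.55 ± 0.50 (SE) on the log2 scale at GV and by 5.73 ± 0.50 at MII (edgeR's quasi-likelihood test, adjusted p = 0.000526 and 0.000463). Marker lists were summed relative to the plain total of reads in genes. All 10 oocyte markers were detected in every library, with summed levels of 18457 to 44719 CPM, against 249 to 510 CPM for 16 granulosa and cumulus markers. Of 10 male germ cell markers, Prm1, Tnp1, Tnp2, Pgk2 and Tex101 had 0 reads in all 8 libraries, and the list summed to 31.0 to 79.8 CPM, with Piwil1 the highest at MII and Ldhc or Piwil1 at GV. Mitochondrial genes took 0.105% to 0.446% of the reads in GV libraries and, at MII, 6.03% and 6.93% in the controls and 3.03% and 4.41% in the knockouts.

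Per length, the RNAs of securin and sororin were more abundant than those of the cohesin ring itself. On the TPM scale, which divides by exon length, Pttg1, which encodes securin, led all members in each group, at 1733 ± 402 (SD, n = 2) in control GV and 2792 ± 68.4 in control MII oocytes. Cdca5, which encodes sororin, an antagonist of cohesin release, followed at 964 ± 35.5 TPM in control GV oocytes, and Syce2, a central element protein of the synaptonemal complex, at 685 ± 60.8 TPM. The libraries of these members did not overlap in TPM with those of the next member in that order. Espl1, which encodes separase, came next at 71.9 ± 8.25 TPM, and from Esco1, at 48.4 ± 17.9 TPM, downward most neighbours overlapped. The ring subunits lay lower, with Smc1a at 32.8 ± 0.374, Smc3 at 20.6 ± 9.53 and Rad21 at 10.4 ± 2.61 TPM in control GV oocytes.

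The meiotic kleisins were at or near 0 reads. Rec8, the kleisin of meiotic sister cohesion, had 0 reads in all 8 libraries, which allows up to 3 reads in each. In the annotation used here, which may not be the one used for counting, no Rec8 exon overlaps an exon of another gene. Whether the 0 reads reflect absent RNA was not tested. The meiotic kleisin gene Rad21l had at most 3 reads in a library and 0 in 5 libraries, and the central element gene Syce3 at most 11 reads and 0 in 5 libraries. These 3 genes did not pass the filter on low counts, so 29 of the 32 members were tested. Counts of members called are out of those 29. The low-level members among them passed through the libraries in which they were high. These were the knockout libraries for Hormad1, the GV libraries for Meikin, and mainly the GV libraries for Stag3 and Syce1. The p-values of their calls against groups at or near 0 reads do not allow for that selection.

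**Figure D1:**
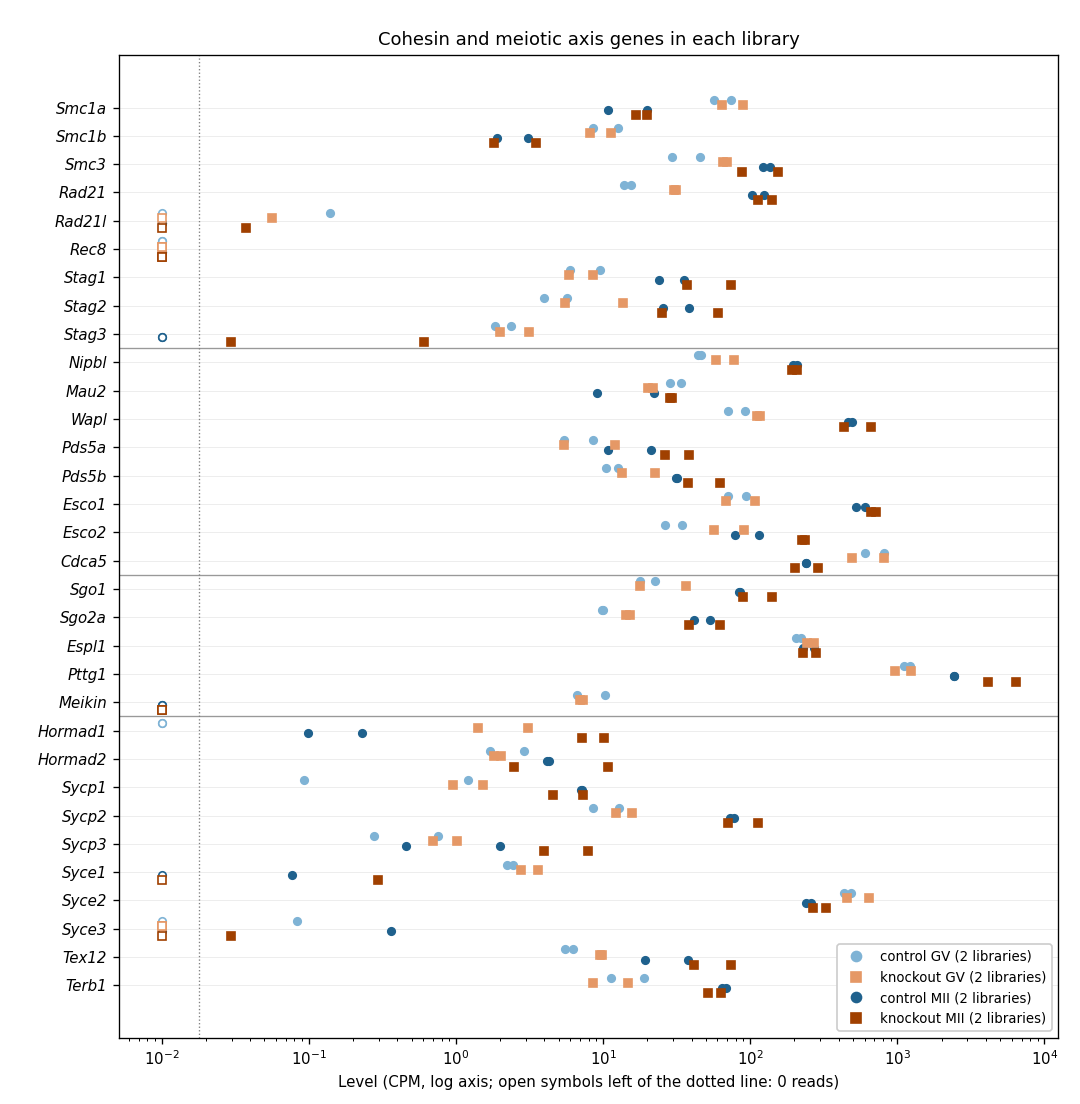
Level of each of the 32 members in each of the 8 libraries, in CPM on a log axis, with members in rows by role and open symbols for 0 reads. Rec8 has no library above 0, Meikin has none above 0 at MII, and the knockout libraries of Hormad1 lie above the control libraries at both stages.

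In knockout GV oocytes Hormad1 was the 1 member called higher and 0 members were called lower (edgeR's quasi-likelihood test, adjusted p below 0.05). Of all 15572 genes tested, 0.597% were called higher and 0.392% lower in this comparison. By unadjusted p below 0.05, 5 members were higher (Smc3, Rad21, Nipbl, Esco2 and Hormad1) and 0 lower, against 6.63% and 4.21% of all genes. DESeq2 called 3 members higher (Esco2, Hormad1 and Rad21) and 0 lower, against 2.26% and 1.65% of all genes by the same tool. The members leaned upward: 21 of 29 had a log2 fold change above 0, against 49.6% of all genes, with a median of 0.39 beside -0.00 for all genes. With library totals as the only scaling the median of all genes moved by -0.27, the members' median was 0.12 and 18 members were above 0. Both knockout libraries lay above both control libraries for 11 members and below for 1 (Mau2), against 22.6% and 23.8% of all genes. The 13 blood and immune markers summed to 73.4 and 62.2 CPM in the control GV and 36.1 and 50.8 CPM in the knockout GV libraries. Most of each sum was C1qb, with 1492 and 1211 reads in the control GV and 817 and 1133 in the knockout GV libraries. Of 5 blood and immune markers tested, edgeR called 0 and DESeq2 1 lower. The granulosa and cumulus list summed to 280 and 320 CPM in the control GV and 288 and 249 CPM in the knockout GV libraries, with 0 called. Serpine2 had the most reads of that list in every library. Both knockout GV libraries lay below both control GV libraries for Amh, Foxl2, Cyp19a1, Inha, Hsd17b1 and Col4a1. They lay above for Fshr, Nr5a2 and Cdh2. By edgeR's unadjusted p below 0.05, 0 of 14 tested were higher and 1 lower. The part of these cells in the members' values was not tested.

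In knockout MII oocytes Hormad1 was again the 1 member called higher and 0 were called lower, while 1.7% of all genes were called higher and 3.44% lower. By unadjusted p below 0.05, 6 members were higher (Stag3, Esco2, Pttg1, Hormad1, Sycp3 and Tex12) and 0 lower, against 8.8% and 13.4% of all genes. DESeq2 called 4 members higher (Esco2, Hormad1, Pttg1 and Stag3) and 0 lower, against 4.21% and 7.26% of all genes by that tool. A log2 fold change above 0 was found for 24 of 29 members, against 46.6% of all genes, with a median of 0.29 beside -0.01. Both knockout libraries lay above both control libraries for 13 members and below for 1 (Terb1), against 21.7% and 24.7% of all genes. Blood and immune markers moved with the same contrast: the 13 genes summed to 12.2 and 57.9 CPM in the control MII libraries and to 0.451 and 0.243 CPM in the knockout MII libraries. In control MII library b most of the sum was Cd74, with 1095 reads there and 0 in library a. Cd52 and Ccl3 were the 2 of 5 tested that were called lower, and Ptprc had 0 reads in all 8 libraries. Of 14 granulosa and cumulus markers tested, 1 was called lower at MII (Hsd17b1) and 0 higher, with 5 lower and 2 higher by unadjusted p and 3 lower and 0 higher by DESeq2. That list summed to 465 and 509 CPM in the control MII and to 510 and 408 CPM in the knockout MII libraries. Serpine2 was again the largest gene in it. The part of these cells in the members' values was not tested.

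Hormad1 encodes a protein of unsynapsed chromosome axes that is removed as chromosomes synapse in prophase. At GV the control libraries each held 0 Hormad1 reads and the knockout libraries 25 and 75 reads. At MII the control libraries held 6 and 3 reads and the knockout libraries 243 and 271 reads. At both stages every knockout library was above every control library. At GV the level in knockout oocytes was at least 17.0-fold higher (adjusted p = 0.0284), from a control floor of 3 reads per library. Without knockout GV library 2 the bound was 10.7-fold. At MII it rose from 0.165 ± 0.0931 to 8.73 ± 2.12 CPM, a log2 fold change of 5.70 ± 1.00 (SE, n = 2 per group, adjusted p = 0.0151). In pools of oocytes, RNA in a few oocytes and a lower amount in every oocyte cannot be told apart. The GV call was lost when any 1 of the 4 GV libraries was left out, with adjusted p = 0.191 and 0.218 without control GV libraries 1 and 2, and 0.0683 and 0.0826 without knockout GV libraries 1 and 2. It was also lost with a replicate block (adjusted p = 0.0539). The MII call was kept in all 14 alternatives that could be computed, with adjusted p between 6.7e-07 and 0.0386, and its log2 fold change was 6.41 without control MII library a.

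Hormad1 lies at chr3:95559677-95587671 on the plus strand (mm10), and none of its exon bases overlap another gene. Its paralog Hormad2, at chr11:4345814-4441105 on the minus strand, was called at neither stage. Its control libraries were at 1.72 and 2.89 CPM at GV and 4.27 and 4.16 CPM at MII, and its knockout libraries at 1.81 and 2.02 CPM at GV and 10.8 and 2.49 CPM at MII. The groups overlapped at both stages, with log2 fold changes of -0.26 ± 0.79 and 0.66 ± 0.77 (adjusted p = 0.987 and 0.682).

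The promoters of Hormad1, of 2 other axis genes with an unadjusted p below 0.05 at MII (Sycp3 and Tex12) and of Hormad2 are shown because many germline genes carry an E-box and an E2F-type site near their start, and these 4 genes differ in them. Each is the 250 bases before a RefSeq transcript start (GRCm38.p6), 5′ to 3′ on the gene's strand. Capitals mark CACGTG and TCCCGC, the latter searched on both strands and so also seen as GCGGGA; the motifs can overlap by 1 base. The windows were chosen after the values were seen, so the differences between them test no link between motifs and changes in RNA. The first is chr3:95559427-95559676, the second chr10:88459337-88459586, the third chr9:50561269-50561518 and the last chr11:4441083-4441332.
Hormad1: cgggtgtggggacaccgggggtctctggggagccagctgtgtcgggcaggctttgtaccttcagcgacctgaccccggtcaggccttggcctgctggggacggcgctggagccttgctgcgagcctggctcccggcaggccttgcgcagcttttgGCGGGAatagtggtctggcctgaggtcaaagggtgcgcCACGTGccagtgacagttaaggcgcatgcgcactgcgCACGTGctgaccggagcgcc
Sycp3: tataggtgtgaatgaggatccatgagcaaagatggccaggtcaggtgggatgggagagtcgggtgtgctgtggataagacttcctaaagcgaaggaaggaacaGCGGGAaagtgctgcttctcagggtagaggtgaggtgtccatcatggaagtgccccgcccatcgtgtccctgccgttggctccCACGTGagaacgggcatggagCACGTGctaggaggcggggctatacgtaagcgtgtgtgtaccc
Tex12: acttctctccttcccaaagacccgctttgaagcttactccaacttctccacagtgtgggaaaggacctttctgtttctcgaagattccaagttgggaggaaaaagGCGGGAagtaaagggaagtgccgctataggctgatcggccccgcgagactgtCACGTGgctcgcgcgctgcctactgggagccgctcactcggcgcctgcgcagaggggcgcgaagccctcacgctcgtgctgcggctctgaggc
Hormad2: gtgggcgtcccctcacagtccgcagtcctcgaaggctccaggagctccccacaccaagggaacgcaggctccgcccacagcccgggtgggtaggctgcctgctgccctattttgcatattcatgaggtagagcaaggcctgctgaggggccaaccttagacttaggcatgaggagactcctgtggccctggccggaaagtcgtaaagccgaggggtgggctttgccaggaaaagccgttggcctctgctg
The Hormad1, Sycp3 and Tex12 windows hold both motifs, and the Hormad2 window holds neither. Of the other members with an unadjusted p below 0.05 at MII, the Pttg1 window holds neither and the Stag3 window only CACGTG, and Esco2 had no window. Syce2, with a window that holds both, was called at neither stage in knockout against control oocytes, and nor were Sycp3 and Tex12. RefSeq windows were found for 26 members, 31 windows in all, some of which overlap. TCCCGC was in 41.9% of them against 16.9% of 32817 windows of all genes, and CACGTG in 32.3% against 6.02%. Both motifs were in 5 windows, 16.1% against 1.44%, and these belong to Hormad1 (2 windows), Syce2, Sycp3 and Tex12. The members' windows are also richer in CpG, with a median of 17 against 6, and motif shares were not adjusted for that. A match describes letters in a window and shows no binding.

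Among the other axis genes, Sycp3, a lateral element protein, was low at GV, at 0.278 and 0.754 CPM in the controls and 1.02 and 0.702 CPM in the knockouts. At MII the controls were at 0.461 and 1.98 CPM and the knockouts at 3.96 and 7.97 CPM. The MII groups did not overlap, with a log2 difference of 2.28 ± 0.99 (adjusted p = 0.21). Of its exon bases 52.2% lie in exons of Chpt1 on the opposite strand. As the strand setting is not given, how reads in those bases were counted is not known. Tex12, a central element protein gene, went at MII from 37.7 and 19.2 CPM in the control libraries to 73.7 and 41.3 CPM in the knockout libraries, which did not overlap (1.01 ± 0.42, adjusted p = 0.189). At GV its libraries were at 6.22 and 5.53 CPM in control and 9.91 and 9.50 CPM in knockout oocytes, again without overlap (0.72 ± 0.43, adjusted p = 0.635). Sycp1, Sycp2, Syce1 and Syce2 had log2 differences of 0.26 to 0.90 at GV and -0.26 to 1.93 at MII, and none passed the test. Terb1, which tethers telomeres to the nuclear envelope in prophase, was at -0.37 ± 0.37 and -0.21 ± 0.37.

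Among the cohesin regulators, Esco2 had the largest difference. ESCO2 acetylates SMC3 and so makes cohesin cohesive. At GV its RNA was at 26.3 and 34.7 CPM in the controls and 57.0 and 90.5 CPM in the knockouts. At MII the controls were at 79.3 and 115 CPM and the knockouts at 235 and 225 CPM. Every knockout library was above every control library of its stage. The log2 differences were 1.28 ± 0.32 at GV and 1.24 ± 0.32 at MII, and neither passed (adjusted p = 0.116 and 0.0522). Over the alternatives the adjusted p ran from 0.0105 to 0.524 at GV and from 0.00543 to 0.232 at MII, with DESeq2 at 0.0179 and 0.00596.

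The paralog Esco1 had log2 differences of 0.11 ± 0.30 at GV and 0.28 ± 0.30 at MII. Within each library, the ESCO2 share of the length-scaled reads of both acetyltransferases was therefore examined, which does not depend on the scaling between libraries. At GV it was 22.3% and 22.1% in the control libraries and 39.1% and 39.0% in the knockout libraries. At MII it was 10.4% and 12.7% in the controls and 21.2% and 19.5% in the knockouts. The share was higher in both knockout libraries than in both control libraries at each stage, which with 2 against 2 libraries cannot reach an exact permutation p below 0.333.

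Of the remaining regulators, Nipbl, the cohesin loader, was at 43.9 and 46.5 CPM in control GV and 77.7 and 58.8 CPM in knockout GV libraries. These did not overlap (0.59 ± 0.26, adjusted p = 0.432), while the MII difference was -0.01 ± 0.25. Mau2, the partner of NIPBL, was lower in both knockout libraries at GV (-0.58 ± 0.42) and higher in both at MII (0.90 ± 0.42). Wapl and Pds5a, which release cohesin, Pds5b, and Cdca5 had differences of -0.11 to 0.64 at GV and 0.04 to 1.02 at MII, and none passed the test.

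Of the core subunits, Rad21, the general kleisin, was at 14.0 and 15.6 CPM in control GV and 30.2 and 31.3 CPM in knockout GV libraries. The groups did not overlap (1.06 ± 0.27, adjusted p = 0.125, DESeq2 adjusted p = 0.0426). The MII libraries, with 102 and 123 CPM for control and 113 and 141 CPM for knockout oocytes, overlapped (0.17 ± 0.26). Smc3 was at 29.7 and 45.6 CPM in control GV and 64.9 and 69.4 CPM in knockout GV libraries (0.84 ± 0.34, adjusted p = 0.378) and differed by -0.09 ± 0.33 at MII. Stag3, the meiotic STAG gene, had 0 reads in both control MII libraries and 1 and 16 in the knockout MII libraries, at least 2.95-fold higher (adjusted p = 0.125). That value rests on knockout MII library 2, without which both groups lay at or under the floor, and was 5.63-fold without knockout MII library 1. At GV its difference was 0.27 ± 1.23. Smc1a, Smc1b, Stag1 and Stag2 had differences of -0.12 to 0.99 at GV and 0.09 to 0.90 at MII, and none passed the test.

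Of the protection and cleavage genes, Pttg1 stood at 1118 and 1214 CPM in the controls and 1235 and 972 CPM in the knockouts at GV. At MII the controls were at 2443 and 2424 CPM and the knockouts at 4142 and 6378 CPM. The groups overlapped at GV and did not at MII, where the difference was 1.11 ± 0.32 (adjusted p = 0.077, between 0.00757 and 0.248 over the alternatives). Sgo1, Sgo2a and Espl1 differed by 0.27 to 0.57 at GV and 0.02 to 0.45 at MII, none past the threshold. Meikin was at 144 and 246 reads in control GV and 124 and 178 reads in knockout GV libraries (-0.24 ± 0.68), and at MII it had 0 reads in both groups.

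**Figure D2:**
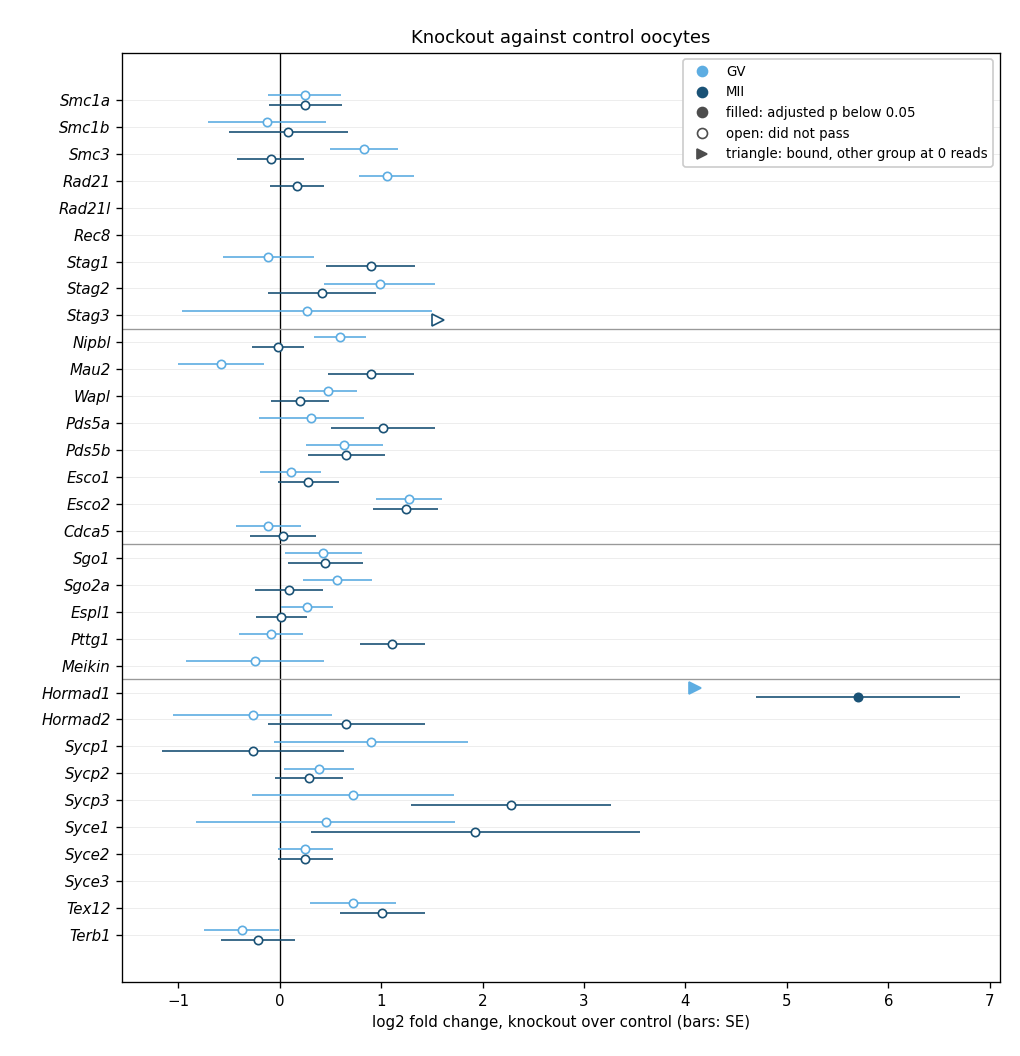
Log2 fold change of knockout over control for each member at GV and MII, with bars for the SE, filled symbols for an adjusted p below 0.05 and triangles for lower bounds against a group at 0 reads. Only Hormad1 is filled, with a bound of 17.0-fold at GV and 5.70 ± 1.00 at MII, and most other symbols lie right of 0.

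Maturation from GV to MII moved most members. In control oocytes 17 of the 29 were called higher and 7 lower at MII (adjusted p below 0.05), against 21.2% and 27.9% of all genes, and their median log2 fold change was 1.67 beside -0.20 for all genes. With the 3 members that had a group at 0 reads set to their bounds, the median was 1.45. In knockout oocytes 16 were higher and 6 lower, against 19.9% and 29.1% of all genes, with a median of 1.79 beside -0.33; without knockout GV library 1, 3 were lower. The calls went the same way in both genotypes for 14 higher and 6 lower members. Another scaling moved the median of all genes in control oocytes by -0.13 (relative log expression) or -0.16 (library totals), and 21 members were above 0 under each, as with the scaling used here, where 47.1% of all genes were. Between stages, levels are relative to the other RNA in a library, and the mitochondrial share given above moved with the stage; its part was not tested.

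Among core subunits the SMC1 genes fell in both genotypes, and Rad21, Stag1 and Stag2 rose in both. Smc1a was at 73.6 and 56.4 CPM in control GV and 10.8 and 20.0 CPM in control MII libraries, a change of -2.08 ± 0.37 (adjusted p = 0.00123), or -2.68 without control MII library b. In knockout oocytes it went from 89.7 and 64.7 to 19.9 and 16.8 CPM, also -2.07 ± 0.37. Smc1b, its meiotic paralog, fell by 2.08 ± 0.61 in control and 1.87 ± 0.60 in knockout oocytes. The control call was lost without control GV library 2 or control MII library b (adjusted p = 0.113 and 0.0648). The knockout call was lost without control GV library 2, either knockout GV library or knockout MII library 2 (adjusted p between 0.052 and 0.143), and with library totals as the scaling (adjusted p = 0.0504). Without knockout MII library 1 the knockout value was -2.49. Rad21, with its GV and MII values above, rose by 2.93 ± 0.29 in control oocytes (adjusted p = 4.23e-05) and by 2.05 ± 0.28 in knockout oocytes (adjusted p = 0.000213). Smc3 rose by 1.78 ± 0.34 in control oocytes, and in knockout oocytes its difference of 0.86 ± 0.33 did not pass (adjusted p = 0.0551).

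The STAG genes separated by type. Stag1 went from 5.94 and 9.60 CPM at GV to 35.7 and 24.1 CPM at MII in the controls, and from 5.83 and 8.55 CPM to 37.5 and 73.8 CPM in the knockouts. It rose by 1.94 ± 0.45 and 2.95 ± 0.47, and Stag2, the other general STAG gene, by 2.73 ± 0.57 and 2.16 ± 0.55. The Stag1 call in control oocytes was lost without control GV library 1 (adjusted p = 0.0589). The Stag2 call in knockout oocytes was lost without knockout GV library 1 (1.59, adjusted p = 0.0818) or knockout MII library 2 (1.40, adjusted p = 0.081), and its value was 2.94 without knockout GV library 2. Stag3 had 40 and 57 reads in control GV and 0 in both control MII libraries, at least 19.8-fold lower at MII (adjusted p = 0.00643). In knockout oocytes it had 35 and 76 reads at GV and 1 and 16 at MII, a difference of -3.02 ± 1.35 that did not pass (adjusted p = 0.0903).

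Among the regulators, Esco1 had the largest fitted rise in knockout oocytes. Its levels went from 70.4 and 93.6 CPM at GV to 526 and 607 CPM at MII in the controls, and from 68.1 and 109 CPM to 668 and 712 CPM in the knockouts. The stages did not overlap, with changes of 2.79 ± 0.32 (adjusted p = 9.31e-05) and 2.96 ± 0.32 (adjusted p = 6.2e-05). Esco2, Nipbl, Wapl and Pds5b also rose in both genotypes, by 1.45 to 2.54 in control and 1.47 to 2.27 in knockout oocytes. Of these, Pds5b lost the control call without control GV library 1 (adjusted p = 0.087) and the knockout call without knockout GV library 1 or knockout MII library 2 (adjusted p = 0.11 and 0.0789). Cdca5 went the other way, from 813 and 601 to 240 and 241 CPM in control libraries (-1.56 ± 0.33) and by -1.41 ± 0.33 in knockout oocytes. Pds5a passed in knockout oocytes (1.89 ± 0.53) and not in control oocytes (1.18 ± 0.52, adjusted p = 0.0837). Its knockout call was lost without knockout GV library 1 or knockout MII library 2 (adjusted p = 0.129 and 0.0639), and the value was 2.55 without knockout GV library 2. Mau2 passed in neither, at -1.01 ± 0.42 and 0.47 ± 0.42.

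Meikin fell from 124 to 246 reads in the GV libraries to 0 reads in all 4 MII libraries. It was at least 79.2-fold lower in control (adjusted p = 0.000255) and at least 71.0-fold lower in knockout oocytes (adjusted p = 0.000254). Meikin passed the filter on low counts through the GV libraries alone, and these p-values do not allow for that selection. The shugoshin genes rose instead: Sgo1, by 2.07 ± 0.39 and 2.09 ± 0.39, and Sgo2a, by 2.25 ± 0.35 and 1.78 ± 0.35 in control and knockout oocytes. Without knockout GV library 2 the Sgo1 value in knockout oocytes was 2.69. Of the Sgo2a exon bases 35.0% lie in exons of Kctd18 on the opposite strand, so its reads share the limit given for Sycp3. Pttg1 rose by 1.06 ± 0.32 and 2.25 ± 0.33, but its control call was lost when any 1 of the 4 control libraries was left out (adjusted p between 0.0595 and 0.102). Espl1 differed by 0.23 ± 0.25 and -0.02 ± 0.25, which did not pass.

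The synaptonemal complex genes split. Sycp2, Tex12 and Terb1 rose in both genotypes, by 2.12 to 2.82 in control and 2.28 to 2.72 in knockout oocytes. The Tex12 value in control oocytes was 1.66 without control MII library a. Sycp1, the transverse filament gene, went from 0.0928 and 1.22 CPM to 7.15 and 7.04 CPM in control libraries (3.42 ± 1.00, adjusted p = 0.0173), a call lost without control GV library 1 (2.53, adjusted p = 0.0811). Without control GV library 2 the value was 6.17, so the size of the Sycp1 change rests on which control GV library is used. Sycp3 passed in knockout oocytes (2.79 ± 1.02, adjusted p = 0.0426), a call lost with a replicate block (adjusted p = 0.0763) and without 5 libraries. These were control GV 1 and 2, knockout GV 1 and 2 and knockout MII 2, with adjusted p between 0.0642 and 0.212, and the value was 2.20 without knockout MII library 2.

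Syce1, a central element gene, had 53 reads in each control GV library and 2 and 0 in the control MII libraries (-5.82 ± 1.69, adjusted p = 0.0165). In knockout oocytes it had 49 and 88 reads at GV and 10 and 0 at MII (-4.34 ± 1.49, adjusted p = 0.0339). The control call was lost without control GV library 1, control GV library 2 or control MII library b (highest adjusted p = 0.0627), and the knockout call without the same 5 libraries as for Sycp3 or with a replicate block (highest adjusted p = 0.122). The Syce1 values moved between -8.91 and -4.92 in control and between -9.32 and -3.41 in knockout oocytes when 1 MII library of the genotype was left out. Syce2 fell by 0.88 ± 0.28 in both genotypes. Its control call was lost without control GV library 1 or either control MII library (adjusted p between 0.0749 and 0.121). Its knockout call was lost without knockout GV library 1 or either knockout MII library (adjusted p between 0.0505 and 0.115), and with only the groups compared (adjusted p = 0.0546). Hormad1 was called higher in control MII oocytes from 0 and 0 to 6 and 3 reads, at least 1.25-fold (adjusted p = 0.0293). That call was lost without either control GV library or control MII library a (adjusted p between 0.0892 and 0.113), and without the latter both groups lay at or under the floor. In knockout oocytes its difference was 1.95 ± 0.82 (adjusted p = 0.0769).

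**Figure D3:**
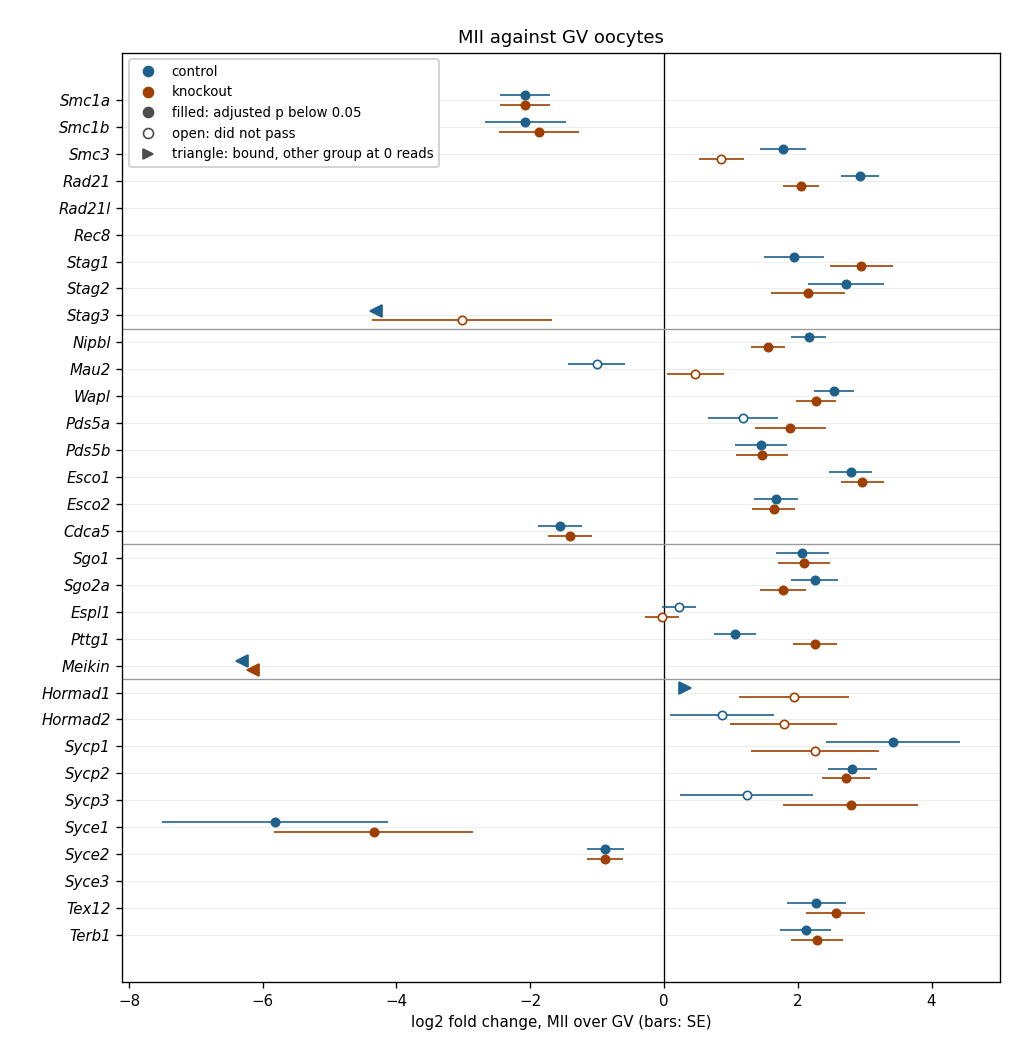
Log2 fold change of MII over GV for each member in control and knockout oocytes, with bars for the SE, filled symbols for an adjusted p below 0.05 and triangles for bounds against a group at 0 reads. Smc1a, Smc1b, Cdca5, Syce1, Syce2 and Meikin lie left of 0 with filled symbols in both genotypes, and 14 members lie right of 0 with filled symbols in both.

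Members called higher at MII had longer exon models than those called lower, with medians of 5541 against 2129 bases in control and 6295 against 2048.5 bases in knockout oocytes. This is a description of the called members, and the part of length in the calls was not tested.

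Paralog shares of length-scaled reads gave a view free of scaling between libraries. The STAG3 share of the STAG subunits was 18.8% to 24.8% in the 4 GV libraries and 0% to 0.773% in the 4 MII libraries, a difference of -21.85 percentage points (exact two-sided permutation test, p = 0.0286, the smallest 4 against 4 libraries can give, and 0.0714 adjusted over 5 shares). The ESCO2 share was 22.1% to 39.1% at GV and 10.4% to 21.2% at MII, a difference of -14.68 points with the same exact p and adjusted p. The share tests shuffled all 8 libraries without regard to genotype. As the ESCO2 share differed by genotype within each stage, its p does not allow for that difference. The SMC1B share of the SMC1 subunits was 17.5% ± 5.80 at GV and 18.7% ± 7.87 at MII (SD, n = 4, exact permutation p = 0.857). The SGO2A share of the shugoshins was 22.9% ± 5.49 and 21.2% ± 3.12 (exact permutation p = 0.686). The limit given above for Sgo2a reads, from the overlap with Kctd18, applies to this share too. The SMC1B and SGO2A shares overlapped between stages, and their direction reversed when a library was left out. The REC8 share of the kleisins was 0% in every library and carries no comparison.

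**Figure D4:**
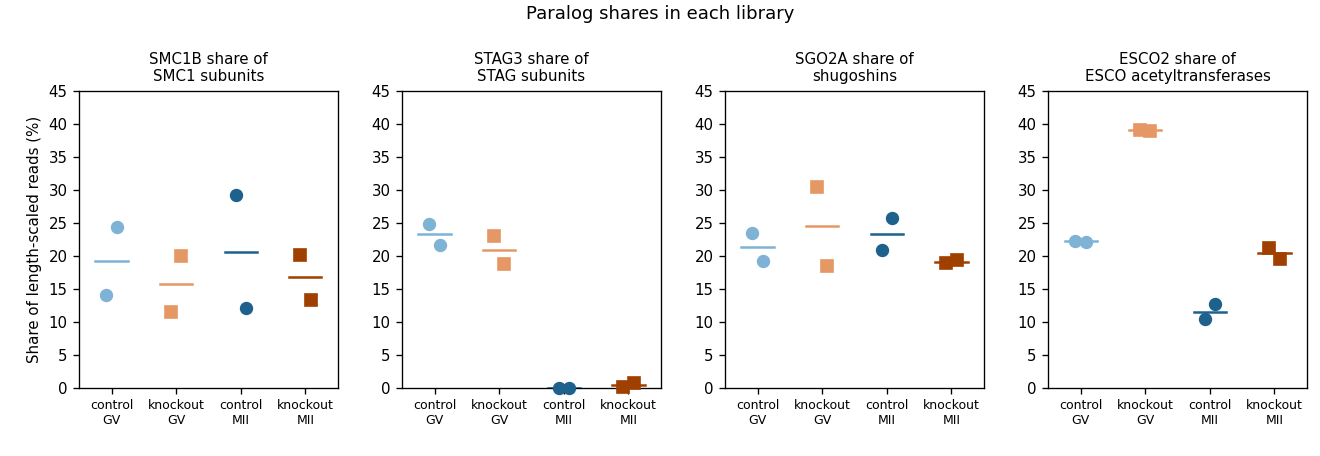
Share of length-scaled reads, in percent, taken by SMC1B, STAG3, SGO2A and ESCO2 RNA within their families, with 1 point per library, lines for group means and 2 libraries per group. The STAG3 share falls from 18.8% to 24.8% at GV to at most 0.773% at MII, and the ESCO2 share of both knockout libraries is above that of both control libraries at each stage.

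Whether knockout and stage interact was tested as the MII effect minus the GV effect, and 0 of 29 members were called in either direction (edgeR's quasi-likelihood test), against 0.00642% of all genes higher and 0.0771% lower, and DESeq2 also called 0. By unadjusted p below 0.05, 3 members were higher (Stag3, Mau2 and Pttg1) and 1 lower (Rad21), against 3.96% and 7.52% of all genes. For Pttg1 the difference was 1.19 ± 0.45, for Mau2 1.48 ± 0.60 and for Rad21 -0.88 ± 0.38 (adjusted p = 0.353, 0.388 and 0.411). For Hormad1 it did not pass (adjusted p = 0.535), and no size is given because the control GV libraries were at 0 reads.

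Of 46 further genes of these pathways, 43 passed the filter. None was called at GV (edgeR 0 higher and 0 lower, 5 and 2 by unadjusted p, DESeq2 0 and 0). At MII 1 was called higher and 0 lower, with 5 and 4 by unadjusted p and 3 and 1 by DESeq2. The called gene was Ddx11, a helicase of replication-coupled cohesion, with 22 and 13 MII reads in the controls and 103 and 42 in the knockouts (1.89 ± 0.42, adjusted p = 0.0326). At GV it had 3260 to 7164 reads, so all MII libraries were low beside it. Through maturation 11 of the 43 were called higher and 13 lower in control oocytes and 10 and 12 in knockout oocytes. These shares of 25.6% and 30.2%, and of 23.3% and 27.9%, were near those of all genes given above. The list had medians of -0.11 and -0.08, where the members' medians were 1.67 and 1.79.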

How the data were processed

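The authors deposited whole-number read counts per Ensembl gene for 8 libraries in 1 table, with no normalization. Per the submitters' processing notes, mm10, Bowtie2, HTSeq and edgeR were used; the sources used here give no versions, annotation, strand setting or alignment target. Bowtie2 does not split reads across introns, which can understate genes with short exons if reads were aligned to the genome. HTSeq's 5 summary entries (22.0% to 35.1% of reads) were left out. Per the file headers, 2 columns share 1 name, belonging to control MII replicate 2. Each was taken as a control MII library, called a and b with no meaning to the order. No per-sample column was left unused (0). Replicate columns were not identical, and their counts differed by more than sampling noise (chi-square per degree of freedom 48.5 to 106).

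Symbols, lengths and coordinates came from GENCODE M21 (54809 of 54838 identifiers matched). Genes passing filterByExpr (15572) were fitted together over all 8 libraries with edgeR 4.0.16 (R 4.3.3; trimmed mean of M values scaling; quasi-likelihood F-test; Benjamini-Hochberg adjustment over all genes tested, threshold 0.05), and 5 contrasts were taken. The SE is the log2 fold change divided by the root of F. CPM use the scaled totals of the tested genes, and TPM the summed exon length. A group at 0 reads was given 3 reads per library for bounds. Share tests were exact permutation tests (SciPy 1.17.1). Alternatives were relative log expression and library-total scaling, no filter, a mean of at least 5 CPM, DESeq2 1.42.0, only the groups compared, a replicate block and leaving out each library.

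The members and lists were chosen with earlier results of these data known. All members are named, with per-library values for those past the threshold in a knockout contrast, those with an unadjusted p below 0.05 there, and the 3 largest calls in each direction through maturation; other pathway genes are named only if called in a knockout contrast.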

Additional observations from a re-analysis of the deposited data

Results flagged for a closer look

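The STAG3 share of the STAG subunits was 0.773% in knockout MII library 2, against 0%, 0% and 0.0832% in the other MII libraries, a gap that set this library apart from the other MII libraries by Dixon's test. It rests on 16 Stag3 reads in that library, and groups without a true outlier are also set apart at times by chance.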

How the results depend on the processing

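With 2 libraries per group, leaving out 1 leaves a lone library that is assumed to vary like the others, and low-count members such as Hormad1, Stag3, Syce1 and Sycp3 are limited by depth. The number of members called higher in knockout GV oocytes (1) became 2 without a filter, 0 with a mean of at least 5 CPM, 3 with DESeq2, 2 with only the groups compared and 0 with a replicate block, and ranged from 0 to 1 when 1 library was left out. At MII (1) it became 2 with relative log expression scaling, 2 with library totals, 4 without a filter, 0 with a mean of at least 5 CPM, 4 with DESeq2 and 3 with only the groups compared, and ranged from 1 to 2 when 1 library was left out. The 5 CPM filter removes Hormad1; the cause of the other changes was not tested. Members lower at MII in knockout oocytes (6) ranged from 3 to 6, with 3 without knockout GV library 1. The stage difference of the SMC1B share ranged from -2.326 to 3.467 points with 1 library left out, reversing without control MII library a (-2.326) or knockout GV library 1 (-0.8229). That of the SGO2A share ranged from -3.205 to 0.8108, reversing without knockout GV library 1 (0.8108). The members' median at MII in control oocytes was 2.10 without control GV library 2 and 1.38 without control MII library b.

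Of the settings tried, counts of calls stayed within 1.5 times the main count in 131 and moved in 17. The 131 include comparisons with 0 calls both in the main fit and in the alternative. Counts of members higher in knockout oocytes moved as given above. The 27 pairs of a member and a comparison followed further were chosen by unadjusted p or by size of a called change, which favours a kept direction. Settings whose filter removed a member were not counted for it. In the settings counted, these pairs kept their direction, with 347 values on the same side of the threshold, 24 losing it and 15 passing it. Outside these, library totals turned the direction of Esco1, Smc1a and Syce2 at GV (3 members) and of Cdca5 and Espl1 at MII (2), relative log expression that of Nipbl at MII (1), and library totals that of Espl1 through maturation in knockout oocytes (1). None of these was called. For the stage difference of the knockout effect, relative log expression turned Esco2 and Syce2 (2), and library totals these and Sycp2 (3), also without a call. No label says that replicate numbers mark a shared animal or day, so the numbers were not taken as pairs. Same-numbered libraries deviated together with correlations of 0.119, 0.0127 and -0.0200 between pairs of groups. The replicate block could be coded for 6 libraries, with control MII libraries a and b given no number.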
